A study of Mus musculus with 2 samples.

Results

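The genes described here are 9 genes of iron storage and transport, Ftl1, Fth1, Trf, Tfrc, Slc11a2, Slc11a1, Slc40a1, Cp and Hmox1, measured in single cells of mouse brain. They were chosen by name, and all 9 are among the 31053 genes of the count tables. Each of 2 samples pools wild-type (WT) mice with mice lacking STING (STING-KO), the adaptor protein of cytosolic DNA sensing, at a younger and an older age, with 2 mice grouped per genotype and age. The sorted brain sample came from male mice of 3 and 12 months, and its cells had passed fluorescence-activated sorting; the gate used is not stated in the labels. The total brain sample was not sorted and came from pooled male and female mice of 2 and 24 months (the age tag reads 240). Every barcode ends in 1 of 4 suffixes, and the labels do not say which mice a suffix holds, so values are given per suffix and neither ages nor genotypes are compared. Sample, sex, age, sorting and any difference in library chemistry cannot be told apart, and with 1 sample per group no p-value is given.

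Iron enters most cells when transferrin (Trf), the plasma iron carrier, binds the transferrin receptor (Tfrc) and is taken into endosomes, from which the divalent metal transporter DMT1 (Slc11a2) moves iron into the cytosol. Iron that is not used at once is caged in ferritin, a shell of heavy subunits (Fth1), which oxidise iron, and light subunits (Ftl1), which help it to mineralise. Ferroportin (Slc40a1) is the known iron exporter and works with ferroxidases such as ceruloplasmin (Cp), NRAMP1 (Slc11a1) moves metal out of the phagosome, and haem oxygenase 1 (Hmox1) frees iron from haem. In brain, oligodendrocytes are known as iron-rich cells, endothelial cells carry iron across the blood-brain barrier, and microglia take up and store it.

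Ferritin, ferroportin and the transferrin receptor are also known to be controlled after transcription, through a hairpin in the mRNA, the iron-responsive element, that the iron regulatory proteins bind. Binding at a 5′ UTR blocks translation and binding at a 3′ UTR stabilises the mRNA, so an mRNA level is not a protein level for these genes. A search of annotated UTRs for an unpaired C, 5 bases, CAGTGN and 5 bases able to pair with the first 5 found a match in 155 of 21899 protein-coding genes (0.708%) and in 4 of the 9 genes. The match was read on the strand of the gene and without allowance for bulges beyond the C. Each site is shown with 30 bases from the GENCODE M21 annotation of GRCm38, because the mRNA levels reported for these genes are read with that control in mind; capitals mark the unpaired C and the CAGTGN loop.
Fth1, 5′ UTR, chr19:9982732-9982761, plus strand: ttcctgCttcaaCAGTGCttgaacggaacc
Ftl1, 5′ UTR, chr7:45459778-45459807, minus strand: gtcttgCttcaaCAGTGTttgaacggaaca
Slc40a1, 5′ UTR, chr1:45925464-45925493, minus strand: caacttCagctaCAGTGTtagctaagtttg
Tfrc, 3′ UTR, chr16:32631219-32631248, plus strand: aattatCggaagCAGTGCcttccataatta
Tfrc, 3′ UTR, chr16:32631598-32631627, plus strand: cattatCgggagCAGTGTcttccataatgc
Tfrc, 3′ UTR, chr16:32631663-32631692, plus strand: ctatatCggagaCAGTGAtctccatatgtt
Tfrc, 3′ UTR, chr16:32631710-32631739, plus strand: aattatCgggaaCAGTGTttcccataattt
The loop reads CAGTGC or CAGTGT in the sites of the ferritin subunits and Slc40a1, and 1 of the 4 Tfrc sites reads CAGTGA. The other 5 genes had no such run of letters in their annotated UTRs, which says nothing more about them.

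After removal of barcodes with under 500 genes or over 10% mitochondrial UMIs (unique molecular identifiers, each standing for 1 captured 3′ mRNA end), 10076 sorted and 9367 total brain cells remained, with medians of 2294 and 1692 UMIs per cell. Cells were grouped without use of the 9 genes or of 48 other iron genes and named "X-like" from marker genes, which put 104 sorted and 477 total brain cells in no class. No barcode sequence was shared between the samples, while 46 sequences in sorted brain and 8 in total brain occurred under more than 1 suffix. A level is given in CPM, the UMIs of a gene per 1000000 UMIs of its class, and it is compared between classes, not between genes. Values in brackets after a level or ratio are exact 95% intervals that cover counting error only. Classes with at least 100 cells are ranked, which is 11 in sorted brain and 9 in total brain.

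**Figure D1:**
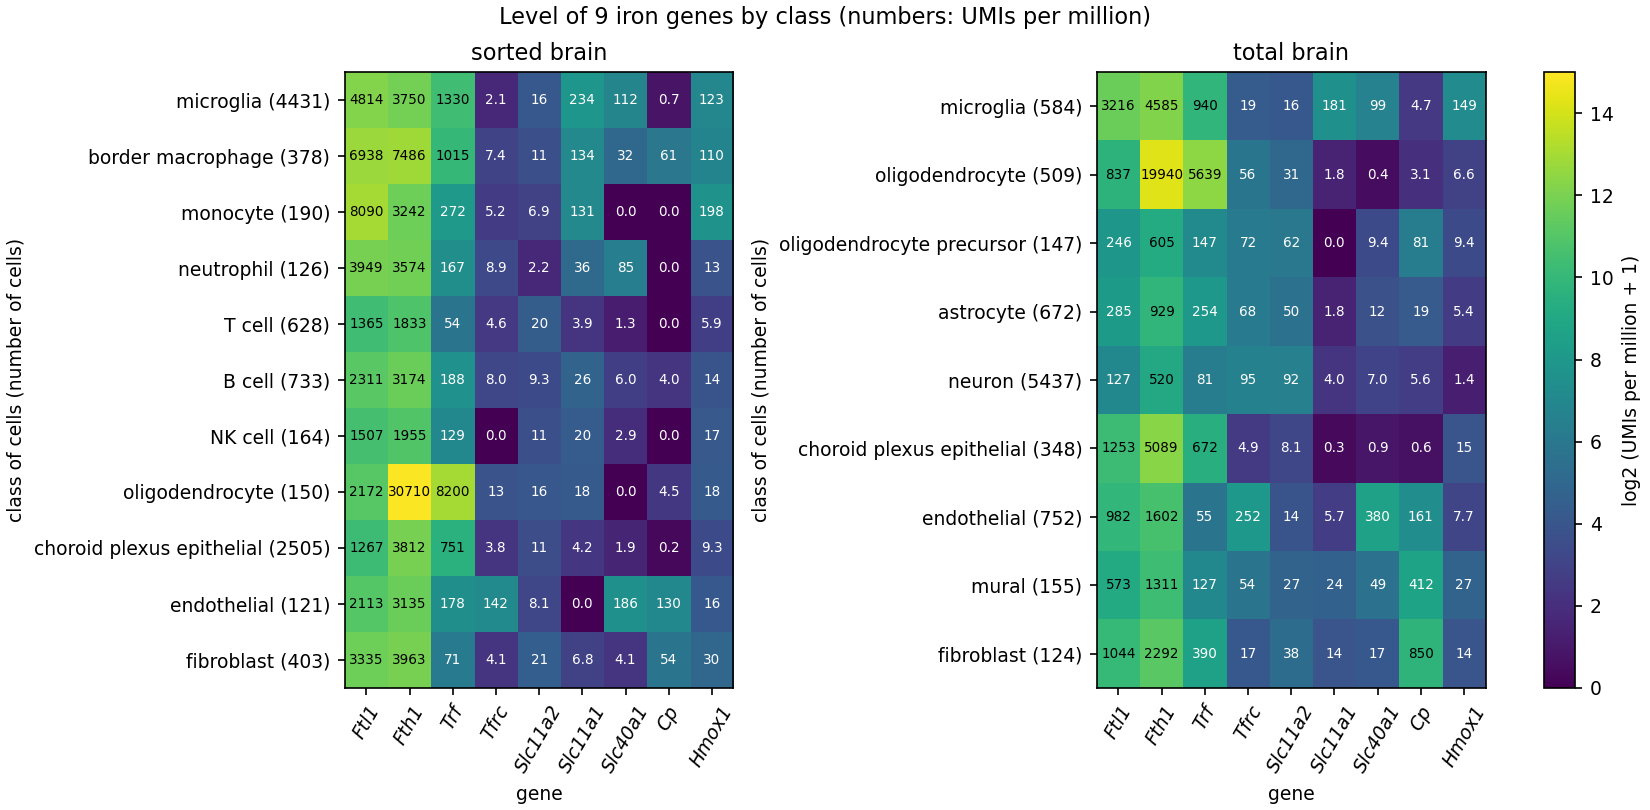
Level of each gene (columns) in each class of at least 100 cells (rows, with the number of cells) in sorted brain (left) and total brain (right); colour is log2 of CPM plus 1 and the printed numbers are CPM, with all class names short for "X-like". Fth1 and Trf peak in oligodendrocyte-like cells, Slc11a1 and Hmox1 are high in macrophage-lineage classes, and Slc40a1 and Tfrc peak in endothelial-like cells of both samples.

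Storage genes. Fth1 (ENSMUSG00000024661, chr19:9980598-9985098 on the plus strand of GRCm38) was highest in oligodendrocyte-like cells of both samples, with 30710 CPM (30200 to 31230) in 150 sorted brain cells and 19940 (19760 to 20120) in 509 total brain cells. In sorted brain the 3 suffixes with at least 20 such cells gave 29190, 32110 and 31870, and the 4 suffixes of total brain gave 27700, 29900, 16720 and 17070. In each sample these values lay above every suffix of every other ranked class. The total brain level rests on cluster 17, with 24680 CPM in 117 cells, while the other 392 cells, cluster 8a, had 2546, below choroid plexus epithelial-like and microglia-like cells. Next among ranked classes came border macrophage-like cells in sorted brain (7486, suffixes 6632 to 8014). In total brain the next ranked class was choroid plexus epithelial-like cells (5089, suffixes 4647 to 5524). Too few to rank there, 31 border macrophage-like cells had 7189 (6830 to 7562) and 19 ependymal-like cells 5347 (5151 to 5548). Neuron-like cells were last in total brain with 520 CPM (suffixes 418 to 773) and T cell-like cells last in sorted brain with 1833. Ferritin mRNA of both subunits together made up 3.29% of all UMIs in sorted and 2.08% in total brain oligodendrocyte-like cells, and 0.0648% in neuron-like cells.

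Ftl1 (ENSMUSG00000050708, chr7:45457944-45459884, minus strand) followed another order. Monocyte-like cells led in sorted brain with 8090 CPM (7861 to 8325), with 9108, 8320, 8252 and 6741 in suffixes 1 to 4. Border macrophage-like cells followed at 6938 (suffixes 5987 to 7677), whose suffix range overlaps that of monocyte-like cells, and under 2 other settings of filter and clustering they led instead. Microglia-like cells, 4431 in sorted brain, came next at 4814 (suffixes 4250 to 6447). In total brain microglia-like cells led the ranked classes at 3216 (suffixes 2173 to 5299), above every suffix of the next ranked class. Too few to rank there, 31 border macrophage-like cells had 4151 (3880 to 4436) and only 5 monocyte-like cells had 3706 (3174 to 4301). Neuron-like cells had 127 CPM of Ftl1 and 82.3 of Ftl1-ps1, a near-identical copy counted as a gene of its own, where microglia-like cells of total brain had 3216 and 51.7. Reads of the 2 copies can be split by the counting, so the Ftl1 level of neuron-like cells is uncertain.

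The balance of the subunit mRNAs therefore differed by class. Oligodendrocyte-like cells had 14.1 Fth1 UMIs per Ftl1 UMI (13.2 to 15.1) in sorted brain and 23.8 (22.7 to 24.9) in total brain. The choroid plexus epithelial-like class had 3.01 and 4.06, and endothelial-like cells 1.48 and 1.63, in sorted and total brain. Neuron-like cells of total brain had 4.09 (3.85 to 4.34), a value that leaves out Ftl1-ps1. Counting that copy with Ftl1 would lower it, so its place among the classes is uncertain. The lowest ranked values were 0.401 (0.380 to 0.423) in monocyte-like cells and 0.779 (0.768 to 0.790) in microglia-like cells, both of sorted brain. Across suffixes, the ratio of microglia-like cells was 0.851, 0.724, 0.711 and 0.812 in sorted brain and 1.57, 1.71, 1.19 and 1.10 in total brain, so the samples did not overlap. Oligodendrocyte-like suffixes likewise gave 12.0 to 16.3 in sorted and 22.5 to 26.7 in total brain. The ratio also rests on how well each mRNA is captured, so it is read only between classes.

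**Figure D2:**
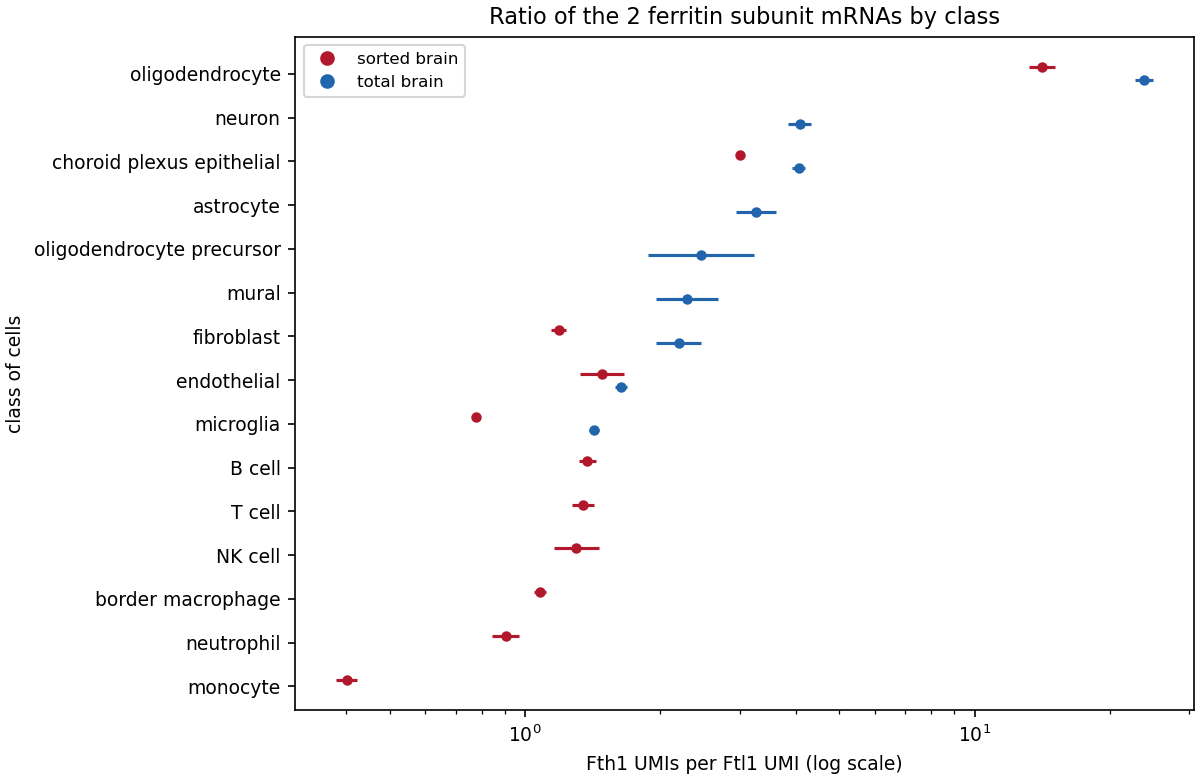
Fth1 UMIs per Ftl1 UMI (x axis, log scale) in each class of at least 100 cells (y axis, names short for "X-like"), with red points for sorted brain, blue points for total brain and bars for exact 95% intervals of counting error. Oligodendrocyte-like cells stand at 14.1 and 23.8, and sorted brain monocyte-like cells lie lowest at 0.401.

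Ferritin also varied between suffixes of total brain. Microglia-like cells of suffixes 1 to 4 had 8314, 6286, 2594 and 2496 CPM of Fth1, and 5299, 3667, 2173 and 2272 of Ftl1. Suffixes 1 and 2 were the higher in both genes. Within cluster 13, which holds 446 of the 584 cells, Fth1 was 6912, 5745, 2516 and 2306, and within cluster 2 (121 cells) it was 15850, 10410, 3480 and 4831. Oligodendrocyte-like (as given for Fth1), neuron-like (735, 773, 507 and 418) and endothelial-like cells (2281, 1845, 1637 and 1284) also had Fth1 highest in suffixes 1 and 2. The choroid plexus epithelial-like class varied least among these classes, with 5524, 4991, 5176 and 4647. The share of barcodes that passed the cell filter was 50%, 56.7%, 69.1% and 68.4% in the same 4 suffixes, and its part in these differences was not tested. Sorted brain suffixes gave 3616, 3369, 4584 and 4687 for Fth1 and 4250, 4651, 6447 and 5770 for Ftl1 in microglia-like cells.

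**Figure D3:**
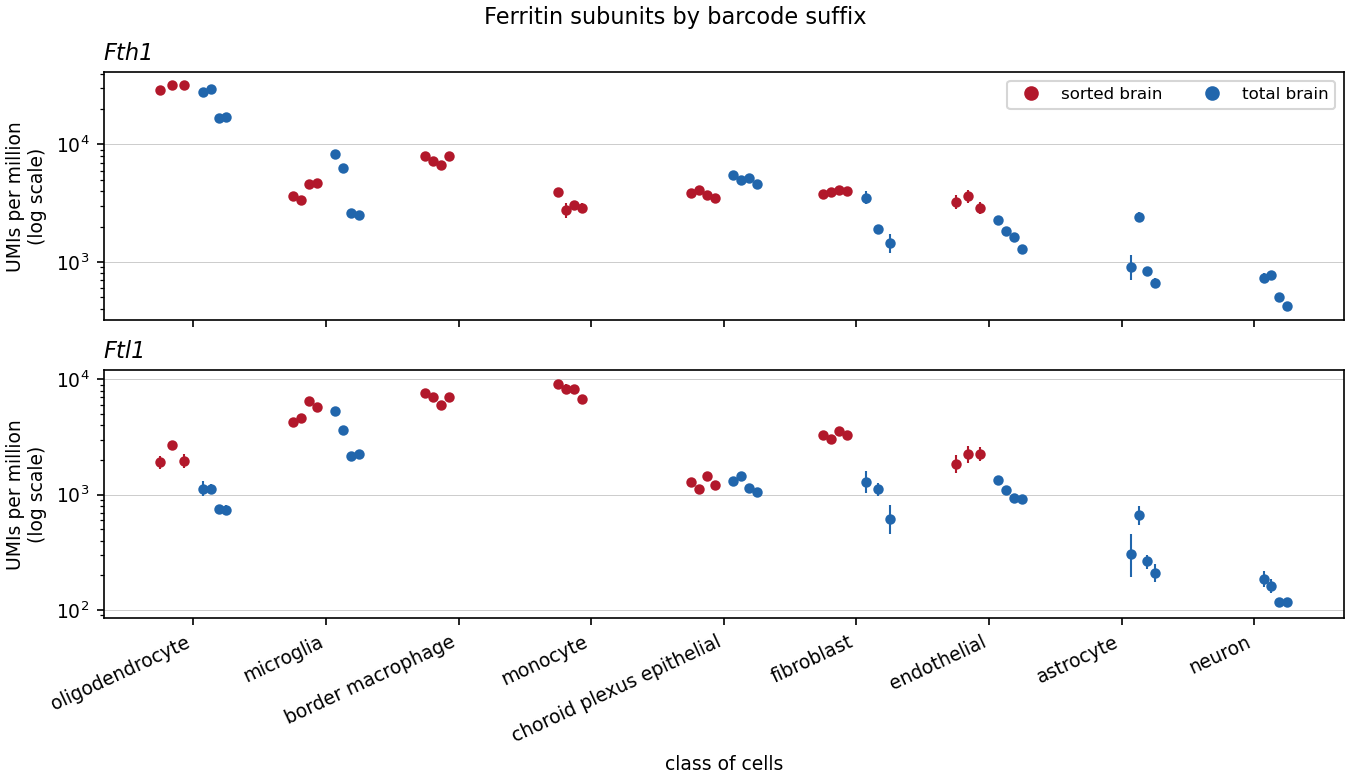
Fth1 (top) and Ftl1 (bottom) in CPM on a log scale for each class (x axis, names short for "X-like"), with 1 point per barcode suffix of at least 20 cells, red for sorted and blue for total brain, in suffix order 1 to 4, and bars for exact 95% counting intervals. In total brain microglia-like cells, Fth1 runs over 8314, 6286, 2594 and 2496.

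The carrier. Trf (ENSMUSG00000032554, chr9:103204001-103230444, minus strand) ranked like Fth1 at the top and unlike it below. Oligodendrocyte-like cells had 8200 CPM (7937 to 8471) in sorted brain, with suffixes at 7982, 8728 and 7780, and 5639 (5542 to 5738) in total brain, with suffixes at 7613, 5849, 5621 and 5150. In total brain, cluster 17 had 6561 and cluster 8a 2260. In both samples every suffix lay above every suffix of microglia-like cells, the second ranked class. Microglia-like cells had 1330 (suffixes 1273 to 1401) in sorted brain and 940 (838 to 987) in total brain. The 31 border macrophage-like cells of total brain, too few to rank, had 1185 (1042 to 1342). Choroid plexus epithelial-like cells, an epithelium that secretes cerebrospinal fluid, had 751 (543 to 1054) and 672 (350 to 914) in sorted and total brain. The lowest ranked levels were 53.6 in T cell-like cells of sorted brain and 54.5 in endothelial-like cells of total brain. A Trf UMI was found in 86.8% of sorted brain microglia-like cells (median 2029 UMIs) and in 10.0% of T cell-like cells (median 2148). With every cell thinned to 1000 UMIs the shares were 71.1% and 5.27%, after 248 and 21 shallower cells were left out. Gm20425 overlaps Trf on the same strand, and reads of the overlap could not be told apart.

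Uptake genes. Tfrc (ENSMUSG00000022797, chr16:32608920-32632794, plus strand) was highest in endothelial-like cells, with 142 CPM (98.9 to 197) in 121 sorted brain cells and 252 (240 to 264) in 752 total brain cells. The suffixes gave 30.7, 190 and 211 in sorted brain, the lowest from 2 UMIs, and 139, 225, 239 and 310 in total brain. Neuron-like cells followed in total brain at 94.8 (suffixes 81.7 to 98.7), below every endothelial-like suffix. Oligodendrocyte precursor-like (71.8), astrocyte-like (68.1), oligodendrocyte-like (56.4) and mural-like cells (53.6) came next, and their suffix ranges overlapped. At the other end, choroid plexus epithelial-like cells had 4.90 in total brain. Every ranked class of sorted brain other than endothelial-like was at or below 13.5, and microglia-like cells were at 2.13 from 20 UMIs. NK cell-like cells had no Tfrc UMI, where 3 UMIs would give 8.58 CPM and the exact interval reaches 10.55. In total brain 54.8% of endothelial-like and 14.99% of neuron-like cells had a Tfrc UMI, against 4.89% of choroid plexus epithelial-like cells, at medians of 4852, 1432 and 5654 UMIs. Thinned to 1000 UMIs, the shares were 18.8%, 8.20% and 0.615%, after 82, 1658 and 23 shallower cells were left out.

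Slc11a2 (ENSMUSG00000023030, chr15:100387898-100425072, minus strand), the endosomal iron transporter, was highest in neuron-like cells of total brain. Neuron-like cells had 91.6 CPM (86.0 to 97.5), with 79.2, 79.9, 88.8 and 101 in suffixes 1 to 4, all above the precursor-like range of 44.9 to 68.4. Oligodendrocyte precursor-like cells (62.4) and astrocyte-like cells (50.03, suffixes 38.3 to 66.0) came next, with overlapping ranges. Fibroblast-like cells followed at 38.3 (15.4 to 61.4), a range that overlapped both, and then oligodendrocyte-like cells at 31.3 (19.3 to 36.7). The choroid plexus epithelial-like class was last at 8.08. Among 5 neuron-like clusters the level ran from 60.5 in the Gabra6-led cluster, a marker of cerebellar granule neurons, to 110 in the Coro6-led cluster, and Tfrc ran from 76.9 to 116.5 over the same clusters. No ranked class of sorted brain passed 20.9, and the order there rests on few UMIs. Reads shared with Gm5475, which overlaps Slc11a2 on the other strand, could not be checked.

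Slc11a1 (ENSMUSG00000026177, chr1:74375195-74386062, plus strand), the phagosomal transporter, was highest in phagocyte classes. Microglia-like cells had 234 CPM (224 to 244) in sorted brain, with suffixes at 225, 255, 217 and 208, and 181 (166 to 196) in total brain, with suffixes at 250, 199, 157 and 136. Border macrophage-like cells had 134 (suffixes 114 to 142) and monocyte-like cells 131 (97.6 to 225) in sorted brain, ranges that overlap each other. Neutrophil-like cells had 35.7, from 16 UMIs. In total brain the next ranked class after microglia-like cells was mural-like at 24.4, from 10 UMIs, and neuron-like cells had 4.03. Phagocyte classes too small to rank there were higher than mural-like cells. They had 90.8 (54.6 to 142) in 31 border macrophage-like cells, 128.5 in 5 monocyte-like and 117.9 in 6 neutrophil-like cells, from 19, 6 and 5 UMIs. A Slc11a1 UMI was found in 35.1% of sorted brain microglia-like cells (median 2029 UMIs) and 1.68% of choroid plexus epithelial-like cells (median 4190). The shares were 19.6% and 0.403% after thinning to 1000 UMIs, which left out 248 and 21 shallower cells.

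The exporter and its ferroxidase. Slc40a1 (ENSMUSG00000025993, chr1:45908068-45926523, minus strand) was highest in endothelial-like cells, at 187 CPM (137 to 249) in sorted brain and 381 (366 to 396) in total brain. Suffix values were 215, 161 and 148 in sorted brain and 226, 232, 389 and 454 in total brain. Microglia-like cells were second among ranked classes, below every endothelial-like suffix of their sample. They had 112 (suffixes 85.8 to 126) and 98.97 (55.0 to 136) in sorted and total brain. Too few to rank in total brain, 31 border macrophage-like cells had 115 (73.5 to 171) and 6 neutrophil-like cells 306.5 (163 to 524). Neutrophil-like cells of sorted brain had 84.7 (suffixes 58.2 to 160), and border macrophage-like cells 32.0 (13.1 to 55.5). Oligodendrocyte-like cells were at the other end: none of 446077 UMIs in sorted brain, where 3 UMIs would give 6.73 CPM, and 1 UMI in total brain, or 0.440 CPM. Monocyte-like cells had none of 581425 UMIs, where 3 UMIs would give 5.16 CPM. In total brain the choroid plexus epithelial-like level of 0.865, from 3 UMIs, cannot be ranked against that of oligodendrocyte-like cells at this depth. Of total brain endothelial-like cells 64.1% had a Slc40a1 UMI, against 0.197% of oligodendrocyte-like cells, at medians of 4852 and 1194 UMIs. After thinning to 1000 UMIs the shares were 27.2% and 0% (up to 1.21% by the exact interval). Thinning left out 82 of 752 and 205 of 509 cells as too shallow.

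Cp (ENSMUSG00000003617, chr3:19957054-20009145, plus strand) was highest, among ranked classes, in fibroblast-like cells of total brain and endothelial-like cells of sorted brain. In total brain it had 850 CPM (764 to 943) in 124 fibroblast-like cells, with 277, 1003 and 1130 in the 3 suffixes with at least 20 cells. Mural-like cells had 412 (352 to 479, suffixes 322 and 444), endothelial-like cells 161 (suffixes 137 to 197) and oligodendrocyte precursor-like cells 81.1 (29.9 to 89.8). Classes too small to rank there were also high, with 344 (269 to 433) in 31 border macrophage-like cells and 128 (99.01 to 162) in 19 ependymal-like cells. In sorted brain endothelial-like cells had 130 (suffixes 138, 73.1 and 94.95). Border macrophage-like cells there had 60.7 (45.5 to 76.3) and fibroblast-like cells 54.0 (42.2 to 61.8). Border macrophage-like suffixes overlapped those of both other classes. The 31 mural-like cells of sorted brain, too few to rank, were higher, at 454 (269 to 717) from 18 UMIs. The fibroblast-like class is made of different clusters in the 2 samples. Cluster 25, led by Dcn and Slc6a13, held 78 of the 124 total brain cells and had 1723 (1542 to 1919). It raised 5 of 6 fibroblast markers but also 5 of 7 mural markers, and whether it holds mural cells was not tested. Cluster 14, led by Mgp and Nov, held 391 of the 403 sorted brain cells, and it had 38.9 (29.4 to 50.5) in sorted and 111 (71.6 to 163) in total brain. Trf, at 830 in cluster 25 of total brain, was at 51.3 in cluster 14 of sorted brain. Of total brain fibroblast-like cells 58.1% had a Cp UMI, against 1.05% of neuron-like cells (medians 1648 and 1432 UMIs). Thinning gave 49.5% and 0.767%, after 31 and 1658 shallower cells were left out. Reads of Hps3, which overlaps Cp on the other strand, were not separated beyond the deposited counts.

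**Figure D4:**
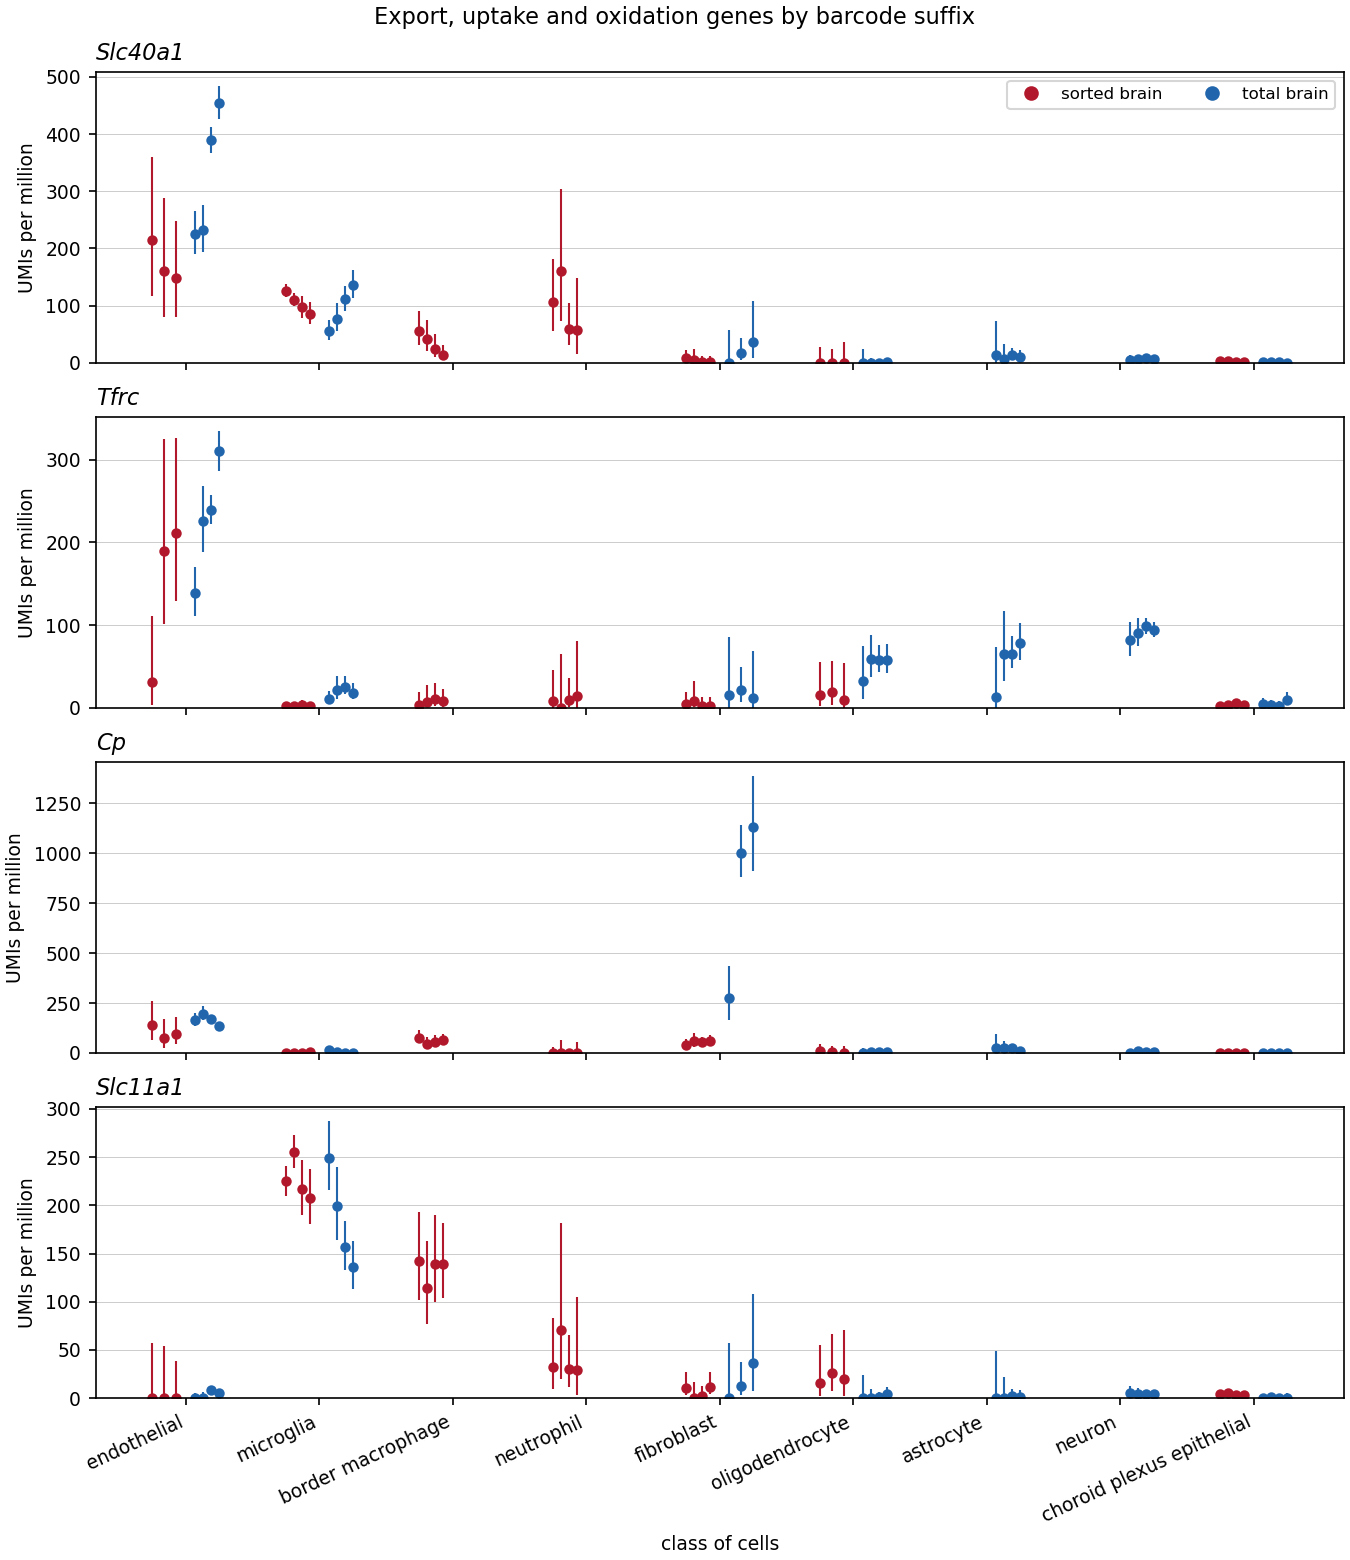
Slc40a1, Tfrc, Cp and Slc11a1 (panels from top to bottom) in CPM for each class (x axis, names short for "X-like"), with 1 point per barcode suffix of at least 20 cells, red for sorted and blue for total brain, in suffix order 1 to 4, and bars for exact 95% counting intervals. Slc40a1 reaches 454 and Tfrc 310 in endothelial-like cells, Cp reaches 1130 in total brain fibroblast-like cells, and Slc11a1 is highest in microglia-like cells.

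Haem breakdown. Hmox1 (ENSMUSG00000005413, chr8:75093621-75100589, plus strand) was highest in monocyte-like cells of sorted brain at 198 CPM (163 to 237), with 366, 195, 130 and 99.3 in suffixes 1 to 4. Microglia-like cells had 123 there, with 139, 74.4, 242 and 106, and border macrophage-like cells 110 (64.5 to 154), so the 3 ranges overlapped. In total brain microglia-like cells led at 149, with 164, 256, 115 and 109, all above the mural-like range of 0 to 51.4. The monocyte-like class held 2 clusters of unlike level. Cluster 19a, led by Ear2 and Fabp4, had 398 CPM of Hmox1 and 10270 of Ftl1, against 102 and 7045 in cluster 19b, led by Plac8 and Lyz2. Slc11a1 was also higher in 19a, at 249 against 73.8.

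All but 2 of the sorted brain microglia-like cells fell into 3 clusters, each of which raised all 10 microglia markers. Cluster 3 also raised 4 of 8 mast cell or basophil markers, and the source of that signal was not tested. Hmox1 was 232 CPM (213 to 252) in cluster 5, led by Ccl4 and Ccl3 (chemokines) and Tnf (a cytokine), 115 (104 to 127) in cluster 3, led by Tpsb2, and 53.8 (46.4 to 62.0) in cluster 2, led by P2ry12. By suffix, cluster 5 gave 251, 147, 374 and 165 and cluster 2 gave 61.7, 42.8, 72.6 and 45.0, without overlap. Ftl1 followed the same order, at 6560, 4938 and 3454 in clusters 5, 3 and 2. Its suffixes ran over 5424, 6343, 8285 and 7474 in cluster 5 and over 3427, 3224, 4194 and 4002 in cluster 2. Fth1 differed less, at 4324, 3702 and 3385. Slc40a1 ran the other way, at 93.2, 107 and 131, with overlapping suffix ranges of 68.0 to 110 in cluster 5 and 84.1 to 141 in cluster 2. Slc11a1 (240, 238 and 224) and Trf (1246, 1371 and 1351) were nearly level. With 1 CPM added, the highest and lowest cluster lay at least 2-fold apart for 1 gene, Hmox1, of the 8 with at least 10 UMIs, against 7.57% of 11701 genes. Cp had 4, 1 and 2 UMIs in clusters 5, 3 and 2, too few to compare. The count ran from 1 to 6 under other settings of filter, suffixes and clustering, for which no share over all genes was computed.

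Sorted and total brain, class by class. A gene counts as higher or lower here when levels plus 1 CPM differ at least 2-fold, among genes with at least 10 UMIs over both sides. Within microglia-like cells none of the 9 genes was higher in sorted brain and 2 were lower, against 4.07% of 12878 genes higher and 24.4% lower, so the count of lower genes was near the background. Tfrc was at 2.13 in sorted and 19.3 in total brain (ratio 0.111, 0.0633 to 0.186), and no suffixes overlapped. By suffix it was 2.11, 1.72, 3.72 and 2.00 in sorted brain and 10.2, 21.9, 25.8 and 18.6 in total brain. Cp was the other, from 7 and 15 UMIs, with overlapping suffixes, and without suffix 1 of total brain its log2 ratio was -0.60 in place of -1.70. Ftl1 (ratio 1.497), Trf (1.42), Slc11a1 (1.29), Slc40a1 (1.14), Slc11a2 (1.02), Hmox1 (0.826) and Fth1 (0.818) stayed within 2-fold, and the last pair changed sign under TMM scaling. Of these, Trf had suffix ranges that did not overlap, 1273 to 1401 in sorted brain and 838 to 987 in total brain. The class is built of different clusters in the samples: 446 of 584 total brain cells were in cluster 13, which held 2 sorted brain cells. In cluster 2, the one with at least 20 cells in both, Tfrc was 1.70 and 3.24 from 6 and 1 UMIs, Slc40a1 131 and 29.2 and Fth1 3385 and 9596 in sorted and total brain. That cluster had 37450 and 3857 CPM of Malat1 and medians of 1.14% and 5.22% mitochondrial UMIs in sorted and total brain, and the whole class medians of 2029 and 4394 UMIs and of 1.10% and 3.49% mitochondrial UMIs. The part of cluster makeup, depth and these RNA measures in the ratios was not tested.

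Within choroid plexus epithelial-like cells, 1 of 8 counted genes was higher and none lower, against 3.34% and 24.6% of 12648 genes. It was Slc11a1, at 4.16 in sorted brain from 55 UMIs and 0.288 in total brain from 1 UMI (ratio 14.4, 2.49 to 580). Cluster 16 of sorted brain, in which 22.7% of cells were called doublets, had 28.7 CPM of Slc11a1 and cluster 0 had 2.43, and the part of doublets in the difference was not tested. The class sits mostly in cluster 0 in sorted brain (2395 of 2505 cells) and in cluster 16 in total brain (269 of 348 cells). Ftl1 was level over the class, at 1267 and 1253 in sorted and total brain, with 1226 and 1301 in cluster 0 and 1842 and 1249 in cluster 16. Fth1 was at 3812 and 5089 (ratio 0.749, 0.736 to 0.762) and its suffixes did not overlap, but the sign turned under TMM scaling, at a log2 ratio of 0.17. Its levels were 3846 and 4676 in cluster 0 and 3335 and 5124 in cluster 16, in sorted and total brain.

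Within oligodendrocyte-like cells, 3 of 7 counted genes were higher and 1 lower, against 5.89% and 39.2% of 10970 genes. Ftl1 was at 2172 in sorted and 837 in total brain (ratio 2.59, 2.40 to 2.80), with suffixes of 1906, 2675 and 1955 in sorted brain and of 1128, 1120, 745 and 744 in total brain. Tfrc was at 13.5 and 56.4 (ratio 0.239, 0.0860 to 0.534), and its suffixes did not overlap either. The other higher genes were Slc11a1 (8 and 4 UMIs) and Hmox1 (8 and 15 UMIs). Of the 509 total brain cells, 392 were in cluster 8a, which held no sorted brain cell and had a median of 976 UMIs, 0.606% mitochondrial UMIs and 72800 CPM of the nuclear RNA Malat1. Cluster 17 had medians of 2349 and 13750 UMIs, 5.38% and 6.98% mitochondrial UMIs and 49040 and 41120 Malat1 CPM in sorted and total brain. Within cluster 17 alone, Ftl1 was at 2172 and 1009 (ratio 2.15, 1.99 to 2.33) and Tfrc at 13.5 and 57.7 (ratio 0.233, 0.0836 to 0.525), so both remained past 2-fold. Fth1 was at 30710 and 24680 there (ratio 1.24) and Trf at 8200 and 6561 (ratio 1.25), while cluster 8a had 2546 and 2260. Over the whole class the ratios were 1.54 for Fth1, with overlapping suffixes, and 1.45 for Trf, without overlap.

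Within endothelial-like cells, a comparison added after the classes were known, 2 of the 9 genes were higher and 2 lower, against 9.23% and 38.3% of 12938 genes. Trf was at 178 in sorted and 54.5 in total brain (ratio 3.27, 2.33 to 4.49), and Ftl1 at 2113 and 982 (ratio 2.15, 1.96 to 2.35). Ranked classes of sorted brain with a Trf level near this were B cell-like (188), neutrophil-like (167) and NK cell-like cells (129). Fibroblast-like (70.9) and T cell-like cells (53.6) lay lower, and the remaining ranked classes, from monocyte-like cells (272) up, lay higher. The endothelial-like class had medians of 1303 and 4852 UMIs and of 3.48% and 6.42% mitochondrial UMIs in sorted and total brain. The part of these measures in the ratios was not tested. Slc40a1 was at 187 and 381 (ratio 0.490, 0.358 to 0.656), close to the 2-fold line, and its log2 ratio ran from -1.46 to -0.80 under other settings. Fth1 was at 3135 and 1602 (ratio 1.96), just inside 2-fold, without overlap of suffixes. Slc11a1, the other gene counted as lower, had 0 and 36 UMIs. Both levels lay below the one that 3 UMIs would give in sorted brain, so it has no fold and its call cannot be relied on. Cells with over 1% haemoglobin UMIs made up 4.96% of the class in sorted brain and 5.19% in total brain.

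**Figure D5:**
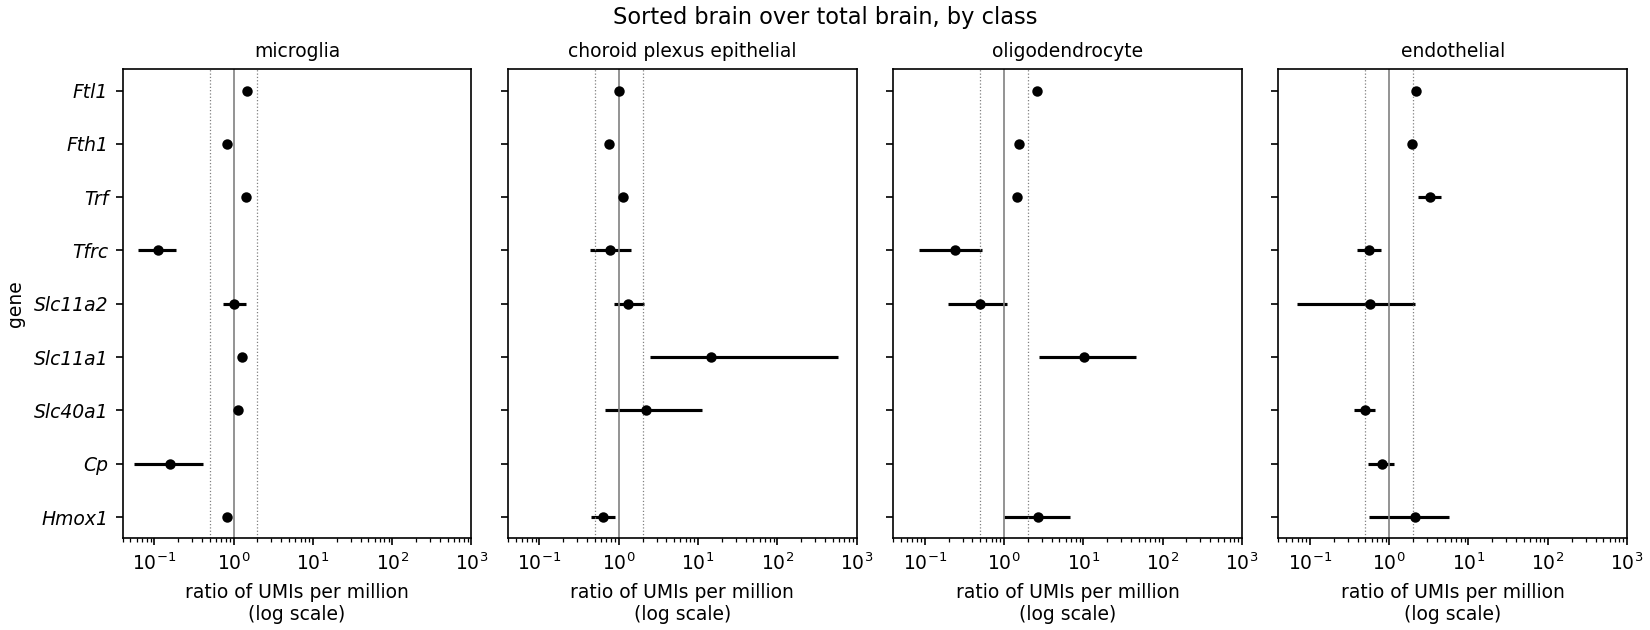
Ratio of CPM in sorted brain over total brain (x axis, log scale) for each gene in 4 classes (panels, names short for "X-like"), with bars for exact 95% counting intervals; dotted lines mark 2-fold, and genes with under 10 UMIs or none on a side are left out. Tfrc lies at 0.111 in microglia-like and 0.239 in oligodendrocyte-like cells, and the Slc11a1 point of choroid plexus epithelial-like cells rests on 55 and 1 UMIs.

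Classes within a sample. Border macrophage-like cells had 2 of the 9 genes higher and 1 lower than microglia-like cells in sorted brain, against 8.66% and 22.5% of 12136 genes. The class is cluster 15, which raised 7 of 7 border macrophage markers but also 4 of 7 dendritic cell and 3 of 6 monocyte markers. Its leading genes include Pf4 and Mrc1 and also H2-Eb1, Cd209a and Cd74, and whether it holds dendritic cells was not tested. Cp was at 60.7 in border macrophage-like and 0.747 in microglia-like cells (ratio 81.2, 37.5 to 209), and Slc40a1 at 32.0 and 112 (ratio 0.285, 0.201 to 0.392), both without overlap of suffixes. In total brain, outside this comparison, Slc40a1 was at 115 (73.5 to 171) in 31 border macrophage-like cells, from 24 UMIs, and 98.97 in microglia-like cells, so the order was not the same there. Tfrc, the other higher gene, rests on 9 and 20 UMIs and its suffixes overlapped. Fth1 was at 7486 and 3750 (log2 ratio 1.00 after rounding, just inside 2-fold), without overlap, and passed 2-fold under TMM scaling, at 1.25.

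Choroid plexus epithelial-like cells had none of the 9 genes higher and 4 lower than microglia-like cells of sorted brain, against 18.5% and 41.9% of 13833 genes, a share near the background. The 4 were Slc11a1 (4.16 and 234), Slc40a1 (1.89 and 112), Hmox1 (9.31 and 123) and Ftl1 (1267 and 4814), all without overlap of suffixes. Fth1 was level at 3812 and 3750, so the subunits parted between these classes.

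Endothelial-like cells of total brain had 6 of the 9 genes higher and 1 lower than neuron-like cells, against 19.6% and 40.8% of 16408 genes. Slc40a1 was at 381 and 6.96 (ratio 54.6, 43.5 to 69.6), Cp at 161 and 5.59 (ratio 28.9), Ftl1 at 982 and 127 (ratio 7.71), Fth1 at 1602 and 520 (ratio 3.08) and Tfrc at 252 and 94.8 (ratio 2.65, 2.45 to 2.87). Slc11a2 was the lower gene, at 14.1 and 91.6 (ratio 0.154, 0.122 to 0.191). All of these had suffix ranges apart, and Hmox1, the sixth higher gene, did not. The size of the Ftl1 ratio is uncertain, since the neuron-like level leaves out Ftl1-ps1. The classes differ in depth, with medians of 4852 and 1432 UMIs, and in mitochondrial UMIs, with 6.42% and 0.730%, and the part of both in these ratios was not tested.

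Oligodendrocyte-like cells of total brain had 4 of the 9 genes higher and 2 lower than neuron-like cells, against 15% and 43.8% of 15918 genes. Trf was at 5639 and 81.3 (ratio 69.4, 64.8 to 74.4), Fth1 at 19940 and 520 (ratio 38.3, 37.3 to 39.4) and Ftl1 at 837 and 127 (ratio 6.58). The size of the Ftl1 ratio is again uncertain because Ftl1-ps1 is left out. Hmox1 had 15 UMIs on either side. Slc11a2 was lower, at 31.3 and 91.6 (ratio 0.341), with 20.7 in cluster 17 and 69.9 (48.4 to 97.6) in cluster 8a, which holds most of the oligodendrocyte-like cells. So was Slc40a1, from 1 and 76 UMIs. The direction of Slc40a1 turned under 2 other ways of clustering, while Slc11a2 stayed lower but was inside 2-fold under TMM scaling and with each sample clustered alone, both at a log2 ratio of -0.99, and under a filter of 1000 genes and 5% mitochondrial UMIs, at -0.90.

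Relations among the 9 genes. Over 20 profiles, each a class of at least 50 cells in 1 sample, Fth1 and Trf had the highest correlation of log2 levels (Pearson r = 0.81), followed by Ftl1 with Hmox1 (0.79) and Slc11a1 with Hmox1 (0.78). Tfrc with Cp (0.61), Slc40a1 with Cp (0.48) and Tfrc with Slc11a2 (0.45) were positive, and Ftl1 with Slc11a2 was the most negative (-0.78). These values describe profiles that share libraries, depth and class sizes, and they carry no test. By the same measure over 9502 genes, the closest profile was Lsm10 for Ftl1 (0.92), Rnf5 for Fth1 (0.88), Nxt2 for Trf (0.90), Spock2 for Tfrc (0.93), Fam120b for Slc11a2 (0.95), Lrrc25 for Slc11a1 (0.94), Arap3 for Slc40a1 (0.91), Mill2 for Cp (0.93) and Ctsz for Hmox1 (0.93). The second closest to Slc40a1 was Slc39a8 (0.87), a metal importer and one of the 48 other iron genes.

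Other iron genes gave the setting of the 9. Endothelial-like cells of total brain had 119 CPM of Slc39a8 and 61.3 of the haem transporter gene Flvcr2, against 2.47 and 0.733 in neuron-like cells. Oligodendrocyte-like cells of total brain had 572 of Slc48a1, a haem transporter gene, and 187 of Hmox2, the constitutive haem oxygenase, against 71.5 and 16.3 in neuron-like cells. Choroid plexus epithelial-like cells had 241 of the metalloreductase family gene Steap1 in sorted brain, against 5.12 in microglia-like cells. Border macrophage-like cells had 73.0 of Cd163, the haemoglobin scavenger receptor, and 200 of the biliverdin reductase gene Blvrb, against 0.213 and 75.9 in microglia-like cells. Hfe, which regulates hepcidin, was another gene apart in sorted brain, with 42.1 in choroid plexus epithelial-like and 169 in microglia-like cells. The hepcidin gene Hamp had 1 UMI in the ranked classes, in sorted brain microglia-like cells.

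Counted over the 48 genes, endothelial-like against neuron-like cells had 11 higher and 10 lower of 35 tested (median log2 ratio -0.03, against -0.63 over all genes). Oligodendrocyte-like against neuron-like cells had 4 higher and 13 lower of 33 (median -0.43, against -0.79). Of the 9 tested genes of uptake and reduction 5 were lower, to be read against 43.8% lower over all genes. Choroid plexus epithelial-like against microglia-like cells had 8 higher and 10 lower of 33 (median -0.40, against -0.71), and border macrophage-like against microglia-like cells 3 higher and 7 lower of 30 (-0.05, against -0.40). Over all genes, the shares for these class comparisons, in the order given, were 19.6%, 15%, 18.5% and 8.66% higher. The shares lower were 40.8%, 43.8%, 41.9% and 22.5%. For sorted over total brain the counts were 5 higher and 7 lower of 28 in microglia-like, 2 and 6 of 33 in choroid plexus epithelial-like, 1 and 9 of 21 in oligodendrocyte-like and 7 and 5 of 29 in endothelial-like cells. Their median log2 ratios were 0.15, -0.24, -0.69 and -0.02 in this order, against -0.20, -0.44, -0.61 and -0.54 over all genes, of which 4.07%, 3.34%, 5.89% and 9.23% were higher and 24.4%, 24.6%, 39.2% and 38.3% lower. Of the 7 genes of mitochondrial iron none was higher and 4, 3, 4 and 2 were lower, to be read against those shares, among them Glrx5 in choroid plexus epithelial-like cells, at 23.4 in sorted and 184 in total brain. Slc46a1, a transporter of folate and haem, went the other way in microglia-like cells, at 94.0 and 44.8, and Lrp1, a receptor for haem-haemopexin, was at 142 and 337, both without overlap of suffixes.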

How the data were processed

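Single-cell RNA sequencing of 3′ mRNA ends gave 1 matrix of UMI counts per sample (sorted brain, total brain). The authors deposited unnormalised counts per gene and barcode; per the file headers they came from Cell Ranger 3.0.2 (sorted) and 3.1.0 (total), while the submitters' processing notes name 3.0.2 and mm10. Per the labels both used 10x v3, although the protocol names v2 and v3. Any difference in chemistry between the samples cannot be told apart from sorting. The matrices held 13499 and 14674 barcodes with 36822467 and 48226525 UMIs; a floor of 500 genes and a ceiling of 10% mitochondrial UMIs left 31220601 and 33498788 UMIs. Scrublet called 0.844% and 0.0747% doublets and so did not work on total brain; none were removed. The deposited counts were log-normalised to 10000 and clustered (scanpy 1.11.5, 2000 variable genes, 30 components, 15 neighbours, leidenalg 0.10.2, resolution 1) without the 9 genes, the 48 other iron genes and ferritin copies. Clusters (43, of which 8 unnamed) got a class when at least 50% and 3 of its markers were raised 2-fold. Sub-clustering of unnamed clusters at 0.5 and a rule leaving clusters unnamed when no own marker leads were chosen after seeing the clusters.

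UMIs were summed per class, sample and suffix. Levels have exact Poisson intervals, ratios exact conditional binomial intervals and shares Clopper-Pearson intervals, all at 95% and for counting error only. A level of 0 is set beside the level that 3 UMIs would give. Suffix ranges use suffixes with at least 20 cells. Named genes are the 9, up to 6 other iron genes per comparison past 2-fold with at least 50 CPM, and the closest profiles; genes named beyond that were chosen after their values were seen. The ratio computation was tested on simulated counts with known fold changes and recovered them. Alternatives were other filters, clusterings, weights, pseudocounts, TMM scaling (edgeR 4.0.16), and leaving out suffixes. The 9 genes and all lists were chosen with earlier results of these data known. Positions and UTR sites come from GENCODE M21, in which 30934 gene IDs of the files were found.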

Additional observations from a re-analysis of the deposited data

Results flagged for a closer look

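Tfrc ran in opposite directions between choroid plexus epithelial-like and microglia-like cells of the 2 samples, which is why it is singled out here. The log2 ratio of choroid plexus epithelial-like over microglia-like cells was 0.61 in sorted brain and -1.78 in total brain. By suffix it was -0.05, 0.89, 0.59 and 0.67 in sorted brain and -0.98, -2.23, -2.95 and -0.96 in total brain, so 3 of 4 suffixes of sorted brain and 4 of 4 of total brain had the sign of their sample. The difference between the samples was not tested, since each is 1 library set. The levels behind it are 3.79 and 2.13 CPM in choroid plexus epithelial-like and microglia-like cells of sorted brain, from 50 and 20 UMIs, and 4.90 and 19.3 in total brain, from 17 and 62 UMIs. Of the 62 UMIs, 60 lie in cluster 13, which holds 446 of the total brain microglia-like cells and 2 of the sorted brain ones. In cluster 2, found in both samples, microglia-like Tfrc was 1.70 in sorted and 3.24 in total brain, from 6 and 1 UMIs. The 1 UMI of total brain cannot place that level below or above the choroid plexus epithelial-like 4.90. Cluster 2 therefore cannot show whether the direction differs between the samples.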

How the results depend on the processing

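Over 31 gene ratios past 2-fold, 674 of 677 alternative values kept their direction and 647 also stayed past 2-fold. Direction turned for Slc40a1 in oligodendrocyte-like over neuron-like cells (log2 0.11 with each sample clustered alone, 0.67 when clustered with the iron genes) and for Slc11a1 in endothelial-like cells, sorted over total (1.76 with each sample clustered alone). Counts of genes past 2-fold changed by over 1.5 times as follows, and the cause was not tested. Sorted over total brain, microglia-like cells had 1 in place of 2 with 10 CPM added or a minimum of 50 UMIs, and 1 to 2 with suffixes left out (1 without suffix 1 of total brain). Choroid plexus epithelial-like cells had 2 in place of 1 with a filter of 1000 genes and 5% mitochondrial UMIs, 0 with 10 CPM added, and 1 to 2 with suffixes left out. Oligodendrocyte-like cells had 9 in place of 4 with each sample clustered alone and 2 with at least 50 UMIs. Endothelial-like cells had 2 in place of 4 with equal weight per suffix and with 10 CPM added. For microglia-like clusters the count of 1 became 3 (200 genes and 20%), 4 (resolution 2), 6 (each sample alone), 2 (with iron genes), 4 (1000 genes and 5%) and 1 to 4 with suffixes left out. These cluster counts took all 9 genes without a UMI minimum, so genes of few UMIs could pass. The same class led in sorted brain for 3 of 9 genes under the strict filter and for 3 to 9 with suffixes left out, where oligodendrocyte-like and endothelial-like cells dropped under 100 cells; Slc11a2 moved from fibroblast-like to T cell-like cells. In total brain, Cp moved to mural-like cells with 200 genes and 20% (226 fibroblast-like cells left), and under the strict filter the leading classes of Fth1, Trf and Cp dropped under 100 cells (88, 88 and 37 left), as did that of Cp without suffix 3 or 4 of total brain (67 and 92 left). TMM scaling raised log2 ratios by 0.10 (endothelial-like, sorted over total) to 0.81 (choroid plexus epithelial-like over microglia-like), and the signs of Fth1 (0.08) and Hmox1 (0.10) in microglia-like cells and of Fth1 (0.17) and Tfrc (0.17) in choroid plexus epithelial-like cells, sorted over total, turned, as did those of Hmox1 (0.09) in border macrophage-like and Slc11a2 (0.18) in choroid plexus epithelial-like over microglia-like cells. No paired analysis was possible because each group is 1 sample. Levels from few UMIs, such as Cp in sorted brain microglia-like cells (7 UMIs), are limited by depth.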

Other observations

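Neutrophil-like cells of sorted brain, a class that the comparisons leave out, had high levels of granule genes that bind iron or haemoglobin. Among the 48 other iron genes, Lcn2, whose protein binds iron carriers of bacteria, had 6872 CPM, the lactoferrin gene Ltf 5889 and the haptoglobin gene Hp 2014. The next ranked class reached 24.3 for Lcn2 (endothelial-like cells of sorted brain), 6.56 for Ltf (border macrophage-like) and 748 for Hp (monocyte-like). The same class came next after endothelial-like and microglia-like cells in the Slc40a1 order of sorted brain. Within it, cluster 21b had 6863 CPM of Fth1 and 335 of Trf, against 2065 and 45.6 in cluster 21a.

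Fibroblast-like cells of total brain had 134 CPM of Bmp6, a known inducer of hepcidin, and 98.2 of Steap3, a ferrireductase gene, the highest values of both among ranked classes. The iron sensor genes Ireb2 and Fbxl5 were highest in total brain classes, with 114 in neuron-like and 177 in oligodendrocyte-like cells. These genes were chosen after their values were seen, and no comparison was tested.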
